A study of Mus musculus with 6 samples.

Results

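Keratins were read from RNA-seq counts of NMuMG cells, an established epithelial line from normal mouse mammary gland. Every row of the count table whose symbol was Krt followed by a number was taken, which left out the keratin-associated proteins (Krtap) and the keratinocyte-associated proteins (Krtcap). The rule gave 32 genes of 18512 rows, 17 of type I and 15 of type II. The 10 genes that averaged 20 raw counts or more over the libraries are given by value, and the other 22 are named as low or silent. All cells were serum-starved. Controls received the vehicle DMSO, and the second group received 5 ng/ml of TGF-β. The third group received the same dose of TGF-β together with 2APB at 50 uM (TGF-β+2APB). The paper uses 2APB as a blocker of store-operated calcium entry and also reports that it raised calcium entry through the channel ORAI3. RNA of 2 replicates per group was sequenced, 6 libraries in all, and cells given 2APB alone are not analysed here. The treatment lasted 24 h by one account of the study and, by its methods, 2APB came first for 24 h and TGF-β was added afterwards.

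Keratins are the intermediate filament proteins of epithelial cells. Each filament is built from pairs of a type I (acidic) and a type II (basic) chain, so that a cell makes both types, and the filaments are tied to desmosomes at cell contacts and to hemidesmosomes at the basement membrane. In simple epithelium, such as the luminal layer of the mammary gland, the pair is Krt8 with Krt18, often joined by Krt19 and Krt7, whereas Krt5 and Krt14 mark the basal, myoepithelial layer and other pairs mark stratified skin and hair. TGF-β induces the epithelial-mesenchymal transition (EMT) in NMuMG cells, a change of state in which epithelial genes are usually described as falling and Vim, the mesenchymal intermediate filament gene, as rising.

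With TGF-β the simple epithelial pair Krt8 and Krt18 rose and Krt19 fell, and each of the 3 genes was called further from DMSO in the same direction under TGF-β+2APB. Krt8 and Krt18 were 1.58-fold and 1.89-fold higher under TGF-β than under DMSO and 2.94-fold and 3.50-fold higher under TGF-β+2APB. Krt19 was at 0.244 of its DMSO level under TGF-β and at 0.0588 under TGF-β+2APB. Krt80, Krt79 and Krt16 rose from low levels in both treatments. All keratin genes together took 0.654% and 0.619% of the counts in the DMSO libraries, 1.03% and 0.903% under TGF-β, and 1.76% and 1.68% under TGF-β+2APB. These shares did not overlap between the groups.

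Each pair of groups was tested by the quasi-likelihood method of edgeR across 13353 genes, those whose normalized counts averaged 20 or more, and a gene was called where its Benjamini-Hochberg false discovery rate (FDR) was 0.05 or less. Of the 10 keratins tested, 6 were called between TGF-β and DMSO, 5 higher and 1 lower, where 41.5% of all genes were called, 21.8% higher and 19.7% lower. Between TGF-β+2APB and DMSO 8 were called, 7 higher and 1 lower, where 52.8% of all genes were called, 25.6% higher and 27.2% lower. Between TGF-β+2APB and TGF-β 8 were called, again 7 higher and 1 lower, where 17.5% of all genes were called, 6.58% higher and 10.9% lower. Without either TGF-β+2APB replicate this last count was 5, partly because Krt16 then fell under the minimum of counts, and without DMSO replicate 1 the first count was 4. The median log2 fold changes of the 10 keratins in these comparisons were 0.79, 1.33 and 0.88, beside -0.01 or nearer to 0 over all genes tested. Krt12, Krt16 and Krt79 averaged under 20 normalized counts under DMSO and passed the minimum only through treated libraries. The counts of keratins called higher and these medians are therefore not independent of that filter. The DMSO libraries serve both comparisons with DMSO, and the TGF-β libraries serve as treated and as reference group, so the comparisons are not independent of each other. In bulk RNA, a change in the number of cells that make a keratin and a change in RNA per cell cannot be told apart.

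**Figure D1:**
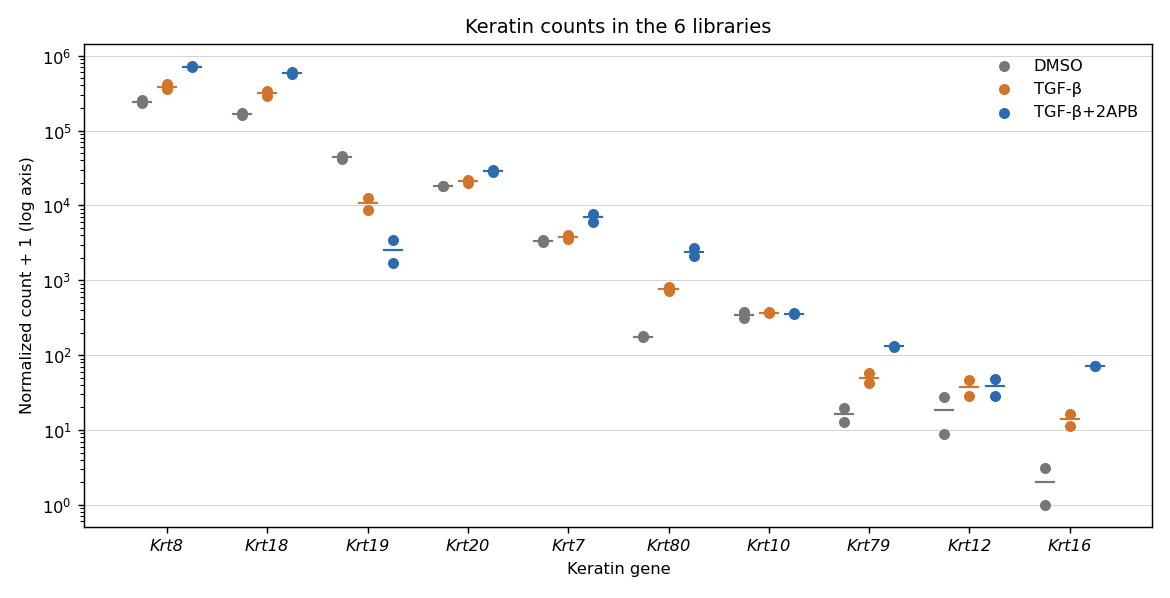
Normalized counts plus 1 (vertical axis, log scale) of the 10 keratin genes (horizontal axis), with a point for each of the 2 replicates of DMSO (grey), TGF-β (orange) and TGF-β+2APB (blue) and a short line at the group mean. By count, not scaled to length, Krt8 and Krt18 stand highest in every group and step upward from DMSO to TGF-β+2APB, Krt19 steps downward, and Krt80, Krt79 and Krt16 step upward from low levels.

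The libraries held 71840570 to 79473182 counts, and replicates had a biological coefficient of variation of 17.4%. The SD of the log2 difference between replicates over all genes tested was 0.33 under DMSO, 0.57 under TGF-β and 0.78 under TGF-β+2APB. Of the 8 markers of epithelium chosen for a check, which include Krt8 and Krt18, 5 had a mean of at least 20 counts. Cdh1, the gene of E-cadherin, held 92780 and 87706 counts under DMSO and 35416 to 60178 in the treated libraries. Esrp2 held 4178 and 3758 under DMSO and 1928 to 3210 when treated, and Epcam 130 and 158, and 52 to 88. Cldn7 and Esrp1 never had more than 6 counts and Cldn3 had no row. Beside Krt8 and Krt18, Cdh1, Esrp2 and Epcam were thus detected in every group, each with fewer counts when treated. The 7 fibroblast markers summed to 1.88 and 2.2 CPM (counts scaled to library size) under DMSO, 30.2 and 31.2 under TGF-β and 39.5 and 31.7 under TGF-β+2APB. Pdgfra held 78 and 74 counts under DMSO, the largest part in replicate 1 and slightly above Col1a1 in replicate 2, and 252 to 286 under TGF-β+2APB, and in the treated libraries most of the sum was Col1a1 and Pdgfrb. Col1a2, Dcn and Thy1 never had more than 6 counts and Lum had no row. The 5 immune markers summed to 3.28 to 8.34 CPM in 5 libraries and to 30.4 in replicate 2 of TGF-β+2APB. Whether these differences played a part in the keratin values was not tested.

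Krt8, the main type II keratin of simple epithelium, had the highest counts of the keratins, without regard to gene length. Its gene lies on the minus strand at chr15:101996698-102004482 (GRCm38). Its normalized counts were 252654 and 234425 in the DMSO replicates, 413159 and 355554 under TGF-β, and 729306 and 700430 under TGF-β+2APB. No value of one group reached into another group. By count, among all 18512 rows, it ranked 10 and 11 under DMSO, 5 in both TGF-β libraries and 3 in both TGF-β+2APB libraries. The log2 fold change was 0.66 (SE 0.09, FDR = 0.00296 by edgeR) for TGF-β relative to DMSO, 1.55 (SE 0.09, FDR = 0.000103) for TGF-β+2APB relative to DMSO, and 0.90 (SE 0.09, FDR = 0.00501) for TGF-β+2APB relative to TGF-β. A processed pseudogene, Krt8-ps, is annotated on chr7 and had no row here, and how the counting treated reads that match more than 1 place is not stated.

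Krt18, the type I partner of Krt8, lies on the plus strand at chr15:102028180-102032027. It is the only one of the 28 annotated type I keratin genes on chr15, beside the 25 type II genes, while the other 27 lie on chr11. The starts of Krt8 and Krt18 are 23698 bp apart and point away from each other, with 0 annotated genes lying wholly between them. Genes that overlap Krt8 or Krt18 were not counted, such as Gm36026, a lincRNA gene that shares 101 exon bases with Krt8. Krt18 held 173694 and 161005 normalized counts under DMSO, 340595 and 290993 under TGF-β, and 608458 and 562988 under TGF-β+2APB. As for Krt8, the groups were fully separate and each step was upward. The log2 fold changes were 0.92 (SE 0.10, FDR = 0.00122), 1.81 (SE 0.10, FDR = 8.42e-05) and 0.89 (SE 0.10, FDR = 0.00588), in the same order of comparisons, by edgeR. At an FDR of 0.05 or less, the calls of Krt8 and Krt18 held in all 13 alternatives that kept this threshold, and they held at an FDR of 0.01.

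The stretches upstream of 2 of the keratin genes are shown, since Krt18 was called higher in all comparisons and Krt20 in those of TGF-β+2APB. They are RefSeq sequences (GRCm38.p6) on the strand of the gene, and the capitals mark CACCTG, the reverse complement of CAGGTG (the E-box that SNAI1 and other zinc finger factors of EMT are known to bind), and TATAAA, the TATA box. The Krt18 stretch runs from position -250 to -37 relative to the RefSeq start, at chr15:102027966-102028179 on the plus strand, and stops at the start in GENCODE. The Krt20 stretch runs from -250 to -1, at chr11:99438154-99438403 on the minus strand.
Krt18: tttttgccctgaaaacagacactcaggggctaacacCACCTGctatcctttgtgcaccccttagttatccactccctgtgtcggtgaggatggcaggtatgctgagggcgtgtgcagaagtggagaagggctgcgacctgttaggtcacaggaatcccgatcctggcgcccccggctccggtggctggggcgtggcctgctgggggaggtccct
Krt20: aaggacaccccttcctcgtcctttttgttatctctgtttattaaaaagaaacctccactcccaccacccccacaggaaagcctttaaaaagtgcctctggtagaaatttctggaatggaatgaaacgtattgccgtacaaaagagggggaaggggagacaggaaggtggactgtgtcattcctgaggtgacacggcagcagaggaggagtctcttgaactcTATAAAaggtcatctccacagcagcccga

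RefSeq windows from 250 bases before to 50 after the start were searched for 6 of the 10 keratins, Krt7, Krt10, Krt12, Krt18, Krt20 and Krt79. Krt19, the only keratin called lower, had no window in the set used and was not searched. CAGGTG, searched on both strands, was in 4 of the 6 windows and in 20.2% of all 32851 windows of that length. It read CACCTG on the gene strand in all 4, starting at -214 in Krt18, -44 in Krt7, -27 in Krt79 and -52 in Krt10. The other 3 matches are shown with their nearest bases, 30 in all, at chr15:101412347-101412376 for Krt7 (plus strand), chr15:101940334-101940363 for Krt79 (minus strand) and chr11:99389399-99389428 for Krt10 (minus strand).
Krt7: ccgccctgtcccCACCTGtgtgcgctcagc
Krt79: gcccctccctctCACCTGtggtaatcacag
Krt10: agcaaagcctagCACCTGtgagacacgccc
The RefSeq start of Krt7 lies 1360 bases inside the GENCODE gene. Of the genes with a match, Krt18, Krt7 and Krt79 were called higher under TGF-β+2APB and Krt10 was not called in any comparison. The letters are a description of these windows and are not evidence of binding. TATAAA, searched on the gene strand and found in 8.32% of all windows, lay at -29 in Krt20 and Krt12 and at -26 in Krt10. TGANTCA, the letters of an AP-1 site, was in 7.81% of all windows and in none of the 6 keratin windows, and GGGCGG, the letters of a GC box, was in 35.7% of all windows and, of the keratins, only in that of Krt7, at 4 places.

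Krt19, the small type I keratin that lacks most of the tail domain and is used as a marker of luminal and ductal cells, was the only keratin called lower. It lies at chr11:100140810-100148665 on the minus strand. Its normalized counts were 45112 and 42139 under DMSO, 12509.5 and 8776 under TGF-β, and 1687 and 3441 under TGF-β+2APB. The groups were separate, and the replicates of TGF-β+2APB lay further apart in proportion than those of DMSO. Its rank by count among all rows went from 191 and 206 under DMSO to 1321 and 2078 under TGF-β and to 7100 and 4966 under TGF-β+2APB. The log2 fold change was -2.04 (SE 0.35, FDR = 0.00659 by edgeR) under TGF-β, -4.09 (SE 0.39, FDR = 0.000492) under TGF-β+2APB, and -2.05 (SE 0.36, FDR = 0.0174) between the treatments. The call of the last comparison was lost without DMSO replicate 1 (FDR = 0.0546 by edgeR), without DMSO replicate 2 (0.0552) and in a fit of the 4 libraries compared (0.0515), with log2 fold changes of -2.66 to -1.66 over the 13 alternatives.

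Krt20 and Krt7, keratins of simple and transitional epithelia, changed under TGF-β+2APB. Krt20 (type I, chr11:99428403-99438150, minus strand) held 17939 and 18321 normalized counts under DMSO, 21941 and 19762 under TGF-β, and 30061 and 27872 under TGF-β+2APB. All values of TGF-β lay above those of DMSO, but the log2 fold change of 0.20 (SE 0.08, 95% confidence interval -0.00 to 0.41) was not called by edgeR (FDR = 0.101), except without TGF-β replicate 2 (FDR = 0.0146). It was called under TGF-β+2APB relative to DMSO at 0.68 (SE 0.08, FDR = 0.00124 by edgeR). Relative to TGF-β it was called at 0.47 (SE 0.08, FDR = 0.0175 by edgeR), in 8 of 13 alternatives. The edgeR call was lost without DMSO replicate 1 (FDR = 0.0691) or 2 (0.0700), without TGF-β+2APB replicate 1 (0.162) or 2 (0.0715), and in the fit of 4 libraries (0.0671).

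Krt7 (type II, chr15:101411043-101430313, plus strand) held 3414 and 3209 normalized counts under DMSO, 3969.9 and 3563 under TGF-β, and 7781 and 6059 under TGF-β+2APB. Its values under TGF-β were just above those of DMSO, and those under TGF-β+2APB stood apart from all others. The log2 fold change under TGF-β was 0.19 (SE 0.14, 95% confidence interval -0.15 to 0.52), which was not called by edgeR (FDR = 0.321), so that a rise of up to 0.52 lay within its error. With TGF-β+2APB it rose by 1.06 relative to DMSO (SE 0.14, FDR = 0.00152 by edgeR) and by 0.88 relative to TGF-β (SE 0.14, FDR = 0.0133), and both calls held in all 13 alternatives at the FDR of 0.05. At an FDR of 0.01 the call relative to TGF-β was lost.

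Krt80, a type II keratin related to those of hair that is made in many epithelia, rose several-fold with a small error. It lies at chr15:101347444-101370162 on the minus strand. Its normalized counts were 178.9 and 173.5 under DMSO, 820.1 and 722.2 under TGF-β, and 2706 and 2127 under TGF-β+2APB. The 3 groups were far apart compared with their replicates. The log2 fold change was 2.13 (SE 0.15, FDR = 0.00032 by edgeR), a 4.37-fold rise, under TGF-β, 3.78 (SE 0.16, FDR = 4.41e-05), a 13.7-fold rise, under TGF-β+2APB, and 1.65 (SE 0.14, FDR = 0.00398) between the treatments. All of these calls held in the 13 alternatives of each comparison and at an FDR of 0.01.

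**Figure D2:**
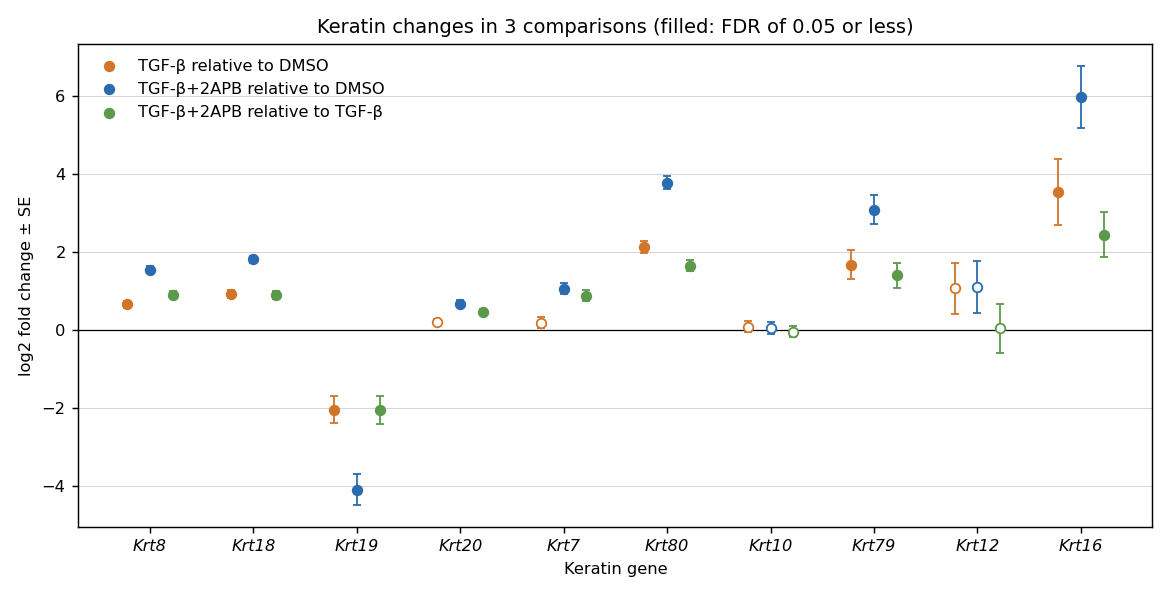
Log2 fold change (vertical axis) of the 10 keratin genes (horizontal axis) under TGF-β relative to DMSO (orange), TGF-β+2APB relative to DMSO (blue) and TGF-β+2APB relative to TGF-β (green). Bars are SE, filled points have an FDR of 0.05 or less and open points do not. Krt19 alone is called below 0, Krt10 stays near 0 with open points, and Krt16 has the largest rise in each comparison and the longest bars relative to DMSO.

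The keratins of skin were present at low counts. Krt16, a type I keratin induced in injured and fast-dividing epidermis, held 0 and 2 raw counts in the DMSO replicates, 16 and 10 under TGF-β, and 72 and 72 under TGF-β+2APB. The groups did not overlap, and the DMSO group was near the lower limit of the counts. Summed over the replicates and scaled by library size, Krt16 was 13-fold higher under TGF-β than under DMSO, with a 95% interval of 3.25 to 113, and 70.6-fold higher under TGF-β+2APB, with an interval of 19.2 to 589. These intervals cover counting error only. As every count in the table is even, the interval was also computed from halved counts, and it then ran from 1.95 to 551 and from 12.3 to 2828. By edgeR the FDR was 0.0209 under TGF-β, 0.00174 under TGF-β+2APB and 0.0417 between the treatments. The first of these calls was lost without DMSO replicate 1 (FDR = 0.0616), and the last one was lost without TGF-β replicate 1 (0.0675) or 2 (0.0893) and without the count filter (0.0691). Krt16 passed the minimum of counts only through the TGF-β+2APB libraries, so that its calls are not independent of that filter. In a fit without those libraries, 5 of 9 keratins tested were called between TGF-β and DMSO. The share of all genes called in that fit is not given here, so this count has no background beside it. Krt16 could not be tested without either TGF-β+2APB replicate, since its mean then fell under the minimum.

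Krt79 is a type II keratin known from the hair follicle duct and sebaceous gland. It held 12 and 18 raw counts under DMSO, 58 and 40 under TGF-β, and 132 and 130 under TGF-β+2APB, so that it rose in separate steps. Its log2 fold changes were 1.68 (SE 0.36, FDR = 0.0138 by edgeR), 3.08 (SE 0.37, FDR = 0.00112) and 1.40 (SE 0.33, FDR = 0.0414), in the same order of comparisons. The first was not called without DMSO replicate 1 (FDR = 0.0985). The last was called in 5 of 13 alternatives and was lost with any of 5 libraries left out, at FDR values by edgeR of 0.081 and 0.0824 without DMSO replicates 1 and 2, 0.074 without TGF-β replicate 2, and 0.115 and 0.0871 without TGF-β+2APB replicates 1 and 2. Krt79 lies at chr15:101929332-101940324 and Krt16 at chr11:100246091-100248902, both on the minus strand.

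Krt10, the type I keratin of the differentiated layers of epidermis, did not follow the others. Its normalized counts were 375.4 and 309.9 under DMSO, 370.1 and 359.0 under TGF-β, and 352.4 and 359.1 under TGF-β+2APB, with both treated groups inside the range of DMSO. The log2 fold changes were 0.09 (95% confidence interval -0.28 to 0.46), 0.05 (-0.32 to 0.43) and -0.04 (-0.41 to 0.34), and none was called by edgeR (FDR = 0.669, 0.785 and 0.893). Rises or falls larger than these limits were outside the intervals, and smaller ones were not detectable. Krt12, known as the keratin of the cornea, held 8 and 26 raw counts under DMSO, 28 and 44 under TGF-β, and 48 and 28 under TGF-β+2APB. Its replicates within a group differed about as much as the group means did, and its log2 fold changes of 1.07 (SE 0.66), 1.11 (SE 0.66) and 0.04 (SE 0.64) were not called by edgeR (FDR = 0.25, 0.21 and 0.971). Krt10 lies at chr11:99385254-99389364 and Krt12 at chr11:99415666-99422259, both on the minus strand.

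The other 22 keratin rows were at or near 0. Krt17, the type I keratin induced in injured skin together with Krt16, had the highest mean of them, 17 raw counts, just under the minimum, where Krt16 with 28.67 and Krt12 with 30.33 lay just above it. Krt17 held 0 and 0 counts under DMSO, 4 and 6 under TGF-β, and 52 and 40 under TGF-β+2APB. Set against a floor of 3 counts for the DMSO group, its summed counts gave ratios of 3.33 under TGF-β and 30.1 under TGF-β+2APB. With halved counts and the same floor the ratios were 1.66 and 15. They leave out the counting error of the treated libraries, so they are not lower bounds. Krt84, a hair keratin, held 0 and 0, 2 and 2, and 16 and 22 counts in the same order, and Krt23, of simple epithelium, held 18 and 8, 12 and 2, and 0 and 4. Krt222, an unusual type I member, stood at 8 to 30 counts in all 6 libraries.

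The keratins of the basal layer were close to absent. Krt5 had at most 2 counts in a library, Krt14 at most 4 and Krt15 at most 2, with no group set apart. Krt83, Krt76, Krt78, Krt85, Krt28, Krt4, Krt39, Krt73, Krt86, Krt31, Krt40, Krt42, Krt13, Krt75 and Krt1 make up the rest. Of the 22, 16 never had more than 10 counts in a library, 11 never had more than 2, and 11 belong to hair and the inner root sheath. None of the 10 keratins described by value is a hair keratin. Of the 53 protein-coding keratin genes of the annotation, 22 had no row and are not analysed here.

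The balance between both types was described from counts divided by transcript length, that of the transcript with the longest coding sequence. Type I genes made up 55.0% and 55.2% of keratin counts per length under DMSO, 54.7% and 54.5% under TGF-β, and 54.0% and 53.2% under TGF-β+2APB. All 6 shares lay between 53.2% and 55.2%, while the keratin share of all counts rose from a mean of 0.637% ± 0.0247 (SD, n = 2) to 0.964% ± 0.0862 and 1.72% ± 0.0553. With the coding length in place of the transcript length the mean type I shares were 52.0%, 50.8% and 49.6%. The type I shares went down in small steps that did not overlap between the groups. The shares are given without a test, and an exact two-sided permutation test of 2 replicates against 2 could not go below 0.333.

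Within type I, the make-up moved from a mixture toward Krt18. Per length, Krt18 took 76% and 75.5% of type I counts under DMSO, 92.4% and 92.7% under TGF-β, and 96.1% and 95.9% under TGF-β+2APB. Krt19 took 18% in both DMSO libraries, 3.09% and 2.55% under TGF-β, and 0.243% and 0.534% under TGF-β+2APB. Krt20 went from 5.85% and 6.4% to 4.44% and 4.69% and to 3.54% in both TGF-β+2APB libraries, although its own normalized counts did not fall. Within type II, Krt8 took 99.2% to 99.4% per length in all 6 libraries. Krt7 took 0.642% and 0.65% under DMSO and 0.506% and 0.411% under TGF-β+2APB, and Krt80 went from 0.0449% and 0.0469% to 0.235% and 0.193%. In all, Krt8 and Krt18 held 86.4% and 86.0% of keratin counts under DMSO, 95.0% and 95.1% under TGF-β, and 96.9% in both TGF-β+2APB libraries.

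The ratio of Krt8 to Krt18 per length was 1.07 in both DMSO libraries, 0.89 and 0.897 under TGF-β, and 0.88 and 0.913 under TGF-β+2APB. It was thus lower in all treated libraries than under DMSO and overlapped between the treatments. By coding length the ratios were 1.26 under DMSO, 1.05 under TGF-β, and 1.03 and 1.07 under TGF-β+2APB. The level of this ratio depends on the length that is used, while the step from DMSO appears with both.

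**Figure D3:**
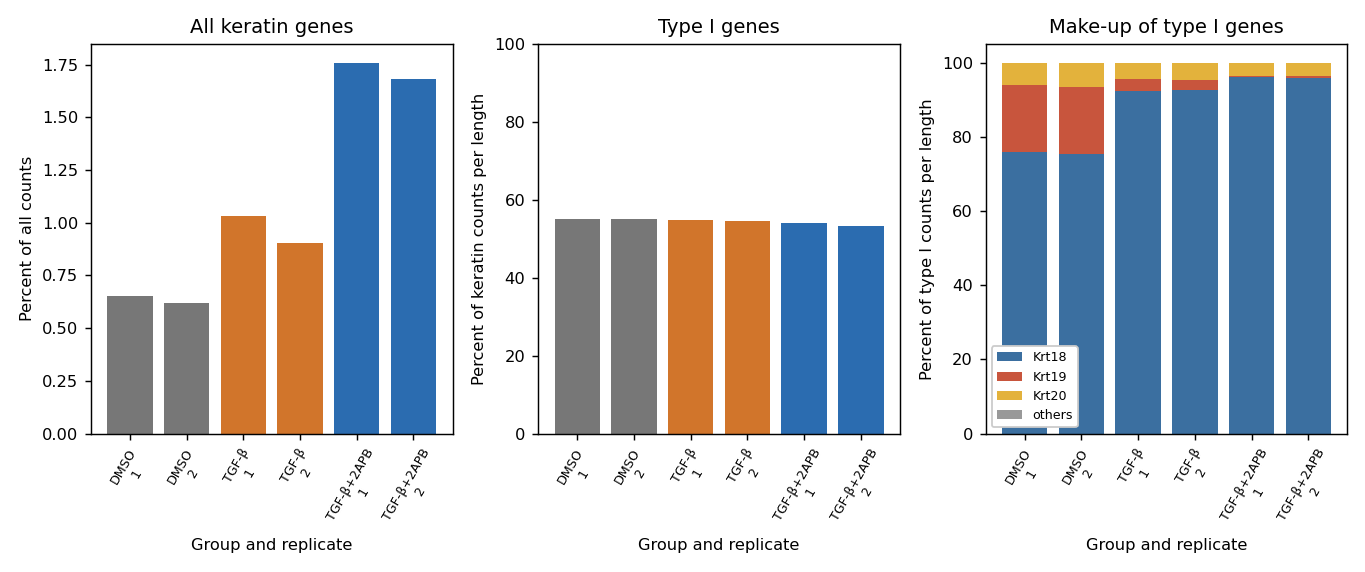
Bar charts by library (group and replicate on the horizontal axis): percent of all counts in keratin genes, percent of keratin counts per transcript length in type I genes, and the make-up of type I counts per length by gene. The keratin share rises from 0.619% in a DMSO library to 1.76% in a TGF-β+2APB library, the type I share lies between 53.2% and 55.2%, and the Krt19 part shrinks from 18% to less than 1%.

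The other intermediate filament genes moved under TGF-β but did not differ by test between the treatments. Of a list of 16 genes, 8 were tested, and 7 were called between TGF-β and DMSO, 6 higher and 1 lower, where 41.5% of all genes were called, with a median log2 fold change of 0.66. Between TGF-β+2APB and DMSO 7 were called, 5 higher and 2 lower (52.8% of all genes, median 0.81), and between TGF-β+2APB and TGF-β 0 were called by edgeR, with 0 at an unadjusted p under 0.05 and 0 by DESeq2 (17.5% of all genes, median 0.02). Without DMSO replicate 1 or 2 the first count was 4 or 3 and the second was 4, and without TGF-β replicate 1 the last was 2. Nes, the gene of nestin, a filament protein of progenitor cells, held 184.8 and 163.2 normalized counts under DMSO, 777.2 and 693.1 under TGF-β, and 651.4 and 467.6 under TGF-β+2APB. It rose by 2.08 on the log2 scale under TGF-β (SE 0.20, FDR = 0.000878 by edgeR) and by 1.68 under TGF-β+2APB (SE 0.20, FDR = 0.00111).

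Lmnb2, which encodes a lamin of the nuclear envelope, rose by 0.89 under TGF-β (SE 0.10, FDR = 0.00123 by edgeR) and by 1.11 under TGF-β+2APB (SE 0.10, FDR = 0.000358). Bfsp1, known from the lens, held 18 and 22 raw counts under DMSO, 74 and 48 under TGF-β, and 32 and 46 under TGF-β+2APB, and was called under TGF-β only (log2 fold change 1.59, SE 0.38, FDR = 0.0215 by edgeR). Des, the filament gene of muscle, held 80 and 74, 36 and 16, and 10 and 22 raw counts, and was called lower under TGF-β+2APB (-2.29, SE 0.54, FDR = 0.0152 by edgeR). The call of Bfsp1 was lost without DMSO replicate 1 (FDR = 0.144), DMSO replicate 2 (0.0901) or TGF-β replicate 1 (0.0593), and that of Des without DMSO replicate 1 (0.0682) or 2 (0.0649). The fall of Des under TGF-β (log2 fold change -1.58, SE 0.52) missed the threshold at an FDR of 0.0564 by edgeR and passed it by DESeq2 (0.0395). Vim, which was picked for this text after its values were seen, held 89244 and 83748 normalized counts under DMSO, 130433 and 115807 under TGF-β, and 135086 and 145916 under TGF-β+2APB. Its log2 fold changes were 0.51 (SE 0.09, FDR = 0.0062 by edgeR) and 0.70 (SE 0.09, FDR = 0.00134) relative to DMSO, and 0.19 (SE 0.09, FDR = 0.19) between the treatments, so that it was called together with Krt8 and Krt18 in the comparisons with DMSO.

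Genes that tie keratins to cell contacts and to the basement membrane were called in both directions. Their list also holds the keratinocyte-associated gene Krtcap3, which was not called in any comparison. Of 23 genes in this list, 20 were tested, and 12 were called under TGF-β relative to DMSO, 5 higher and 7 lower, where 41.5% of all genes were called (median log2 fold change -0.01). With TGF-β+2APB relative to DMSO 14 were called, 7 higher and 7 lower (52.8% of all genes, median 0.07), and relative to TGF-β 9 were called, 5 higher and 4 lower (17.5% of all genes, median -0.02). Without either DMSO replicate the first count was 7, and the last was 3 or 2 without DMSO replicate 1 or 2 and 2 or 4 without TGF-β+2APB replicate 1 or 2. Pkp1, the gene of plakophilin 1, a desmosomal plaque protein that binds keratin and is abundant in skin, held 8 and 10 raw counts under DMSO, 2184 and 1860 under TGF-β, and 3544 and 2812 under TGF-β+2APB. It was 224-fold and 346-fold higher than under DMSO by summed counts, with FDR values of 3.05e-05 and 1.45e-05 by edgeR, and was higher under TGF-β+2APB than under TGF-β by 0.63 on the log2 scale (SE 0.14, FDR = 0.0312). The last of these calls was lost without DMSO replicate 1 (FDR = 0.0794 by edgeR) or 2 (0.0800) and without TGF-β+2APB replicate 1 (0.198).

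Ppl, the gene of periplakin, which links keratin filaments to desmosomes, took the opposite course. It held 26898 and 27526 normalized counts under DMSO, 12765 and 11569 under TGF-β, and 5296 and 7194 under TGF-β+2APB. The log2 fold changes were -1.16 (SE 0.15, FDR = 0.00252 by edgeR), -2.12 (SE 0.16, FDR = 0.000207) and -0.96 (SE 0.15, FDR = 0.014). Pkp3, another plakophilin, held 40 and 18 raw counts under DMSO, 46 and 36 under TGF-β, and 198 and 170 under TGF-β+2APB, and Col17a1, the hemidesmosomal collagen, held 10 and 20, 36 and 24, and 88 and 60. Both were called under TGF-β+2APB relative to DMSO (log2 fold changes 2.64 and 2.26, FDR = 0.00337 and 0.0107 by edgeR) and not under TGF-β alone (FDR = 0.375 and 0.164), and between the treatments Pkp3 was called (FDR = 0.0216) and Col17a1 was not (FDR = 0.116). Calls were lost for Ppl between the treatments without DMSO replicate 2 (FDR = 0.0502 by edgeR), for Pkp3 between the treatments without TGF-β+2APB replicate 1 (0.0641), and for Col17a1 relative to DMSO without DMSO replicate 1 (0.0641).

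Genes of the cornified envelope, the protein shell of dead skin cells in which keratins are embedded, were tested for 10 of 41 list members. With TGF-β relative to DMSO 9 were called, 6 higher and 3 lower, where 41.5% of all genes were called (median log2 fold change 2.24), and under TGF-β+2APB relative to DMSO all 10 were called, 6 higher and 4 lower (52.8% of all genes, median 1.67). Between the treatments 4 were called, 3 higher and 1 lower (17.5% of all genes, median -0.03). Without either DMSO replicate the second count was 6, and without either replicate of DMSO or TGF-β+2APB the last was 2. Lce1f, Lce1g, Lce1h and Sprr1b, with at most 10 raw counts in a DMSO library, passed the minimum of counts only through the treated libraries. Lor did so too, from 18 and 20 raw counts under DMSO. The calls of these genes relative to DMSO, and the medians, are therefore not independent of that filter. Lce1g, of the late cornified envelope family, held 4 and 4 raw counts under DMSO, 3112 and 2768 under TGF-β, and 8774 and 7230 under TGF-β+2APB. By summed counts it was 733-fold and 1963-fold higher than under DMSO, and it was the largest rise of this list between the treatments that was called (log2 fold change 1.42, SE 0.11, FDR = 0.00311 by edgeR).

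Lce1f and Lce1h of the same family had 0 counts in both DMSO libraries. Lce1f held 518 and 442 raw counts under TGF-β and 880 and 748 under TGF-β+2APB. Its summed counts were 319-fold and 532-fold the floor of 3 counts for the DMSO group. Lce1h held 404 and 326, and 340 and 286, which were 243-fold and 205-fold the floor. With halved counts the ratios were 160-fold and 266-fold for Lce1f and 121-fold and 102-fold for Lce1h. These ratios also leave out the counting error of the treated libraries. The Lce1 genes are close relatives, and reads that match several of them may have been split by the counting. Sprr1a, a small proline-rich envelope protein, moved the other way with 42902 and 37304 raw counts under DMSO, 26828 and 19252 under TGF-β, and 2454 and 4092 under TGF-β+2APB. Its log2 fold changes were -0.81 (SE 0.25, FDR = 0.0496 by edgeR), -3.64 (SE 0.28, FDR = 0.000243) and -2.83 (SE 0.27, FDR = 0.00462), so that, like Krt19 and Ppl, it was called lower in each comparison. The call of Sprr1a under TGF-β was lost without DMSO replicate 1 (FDR = 0.195 by edgeR), DMSO replicate 2 (0.138) or TGF-β replicate 2 (0.124), and without the count filter (0.0659).

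**Figure D4:**
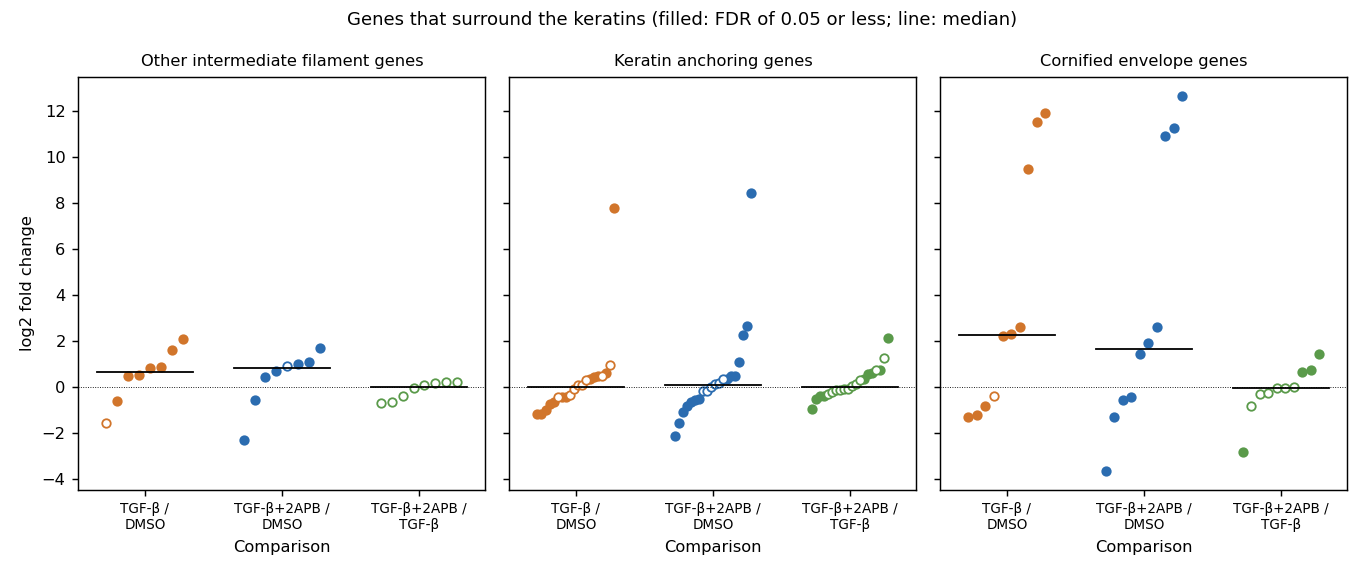
Log2 fold change (vertical axis) of the tested genes of 3 lists in the 3 comparisons (horizontal axis), a point per gene, filled where the FDR is 0.05 or less, with a line at the median of the list. Other intermediate filament genes have only open points between TGF-β+2APB and TGF-β, anchoring genes spread around 0 with Pkp1 far above relative to DMSO, and in the cornified envelope panel Lce1f, Lce1g and Lce1h stand far above the rest relative to DMSO and Sprr1a lowest under TGF-β+2APB.

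Where the annotation places another gene on the opposite strand of a keratin exon, the count can hold reads of both, since the strand setting of the counting is not stated. The shared exon length was 1007 bases for Krt12 with A830036E02Rik, 263 for Krt80 with Gm35853, 146 for Krt10 with Gm11940, 101 for Krt8 with Gm36026 and 77 for Krt7 with Gm671. The overlap of Krt12 covers a large part of its 1852 bases of transcript, and no such overlap was found for Krt16, Krt18, Krt19, Krt20 or Krt79.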

How the data were processed

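RNA of NMuMG cells was selected with oligo-dT and sequenced by the study, with 2 replicates for each of 3 groups. The authors checked reads with FastQC 0.11.2, aligned them with TopHat2 2.0.13 and counted them per gene with featureCounts, and the deposited values are raw counts, not normalized. The genome is given as mm10 in the submitters' processing notes and as hg19 in the paper's methods. The symbols are mouse symbols, and 94.63% of the 18512 rows matched GENCODE annotation of GRCm38 by name. The annotation, strand setting and treatment of reads with several alignments are not given in the sources used here. All deposited counts are even. Library totals were 71840570 to 79473182. The p-values rest on a spread between replicates that was estimated over the 3 groups together, with 2 replicates per group. This spread was not equal between the groups, so a test of 2 groups also draws on the spread of the third.

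Counts were fitted in R 4.3.3 with edgeR 4.0.16 (TMM scaling, 3 groups in 1 quasi-likelihood model, mean of at least 20 normalized counts, Benjamini-Hochberg over all genes tested). Normalized counts refer to a library of average size. The SE was derived from the fold change and the F statistic, and confidence intervals are at 95%. Where a DMSO group had no count, a floor of 3 counts over the group was used. The procedure was run on simulated counts that had the same spread for all genes and groups. The groups of these data differed in spread, so that run does not measure the error of the calls made here. The minimum of 20 normalized counts is a mean over all groups. Krt12, Krt16, Krt79, Pkp1, Col17a1, Krtap1-5 and several cornified envelope genes passed it only through treated libraries, so their tests and calls are not independent of it. Keratins with a mean of 20 or more are described, and from each other list up to 4 called genes with the largest change. Members and lists were chosen with earlier results of these data known. Alternatives were DESeq2 1.42.0, RLE or library size scaling, no filter, halved counts, a block for the replicate number, fits restricted to 4 libraries, an FDR of 0.01, coding lengths, and leaving out each library. RefSeq promoter windows were searched in Python 3.11.15 with pandas 2.3.3, intervals used scipy 1.17.1 and plots matplotlib 3.10.9. Sequence reads and keratin proteins were not analysed here, and 1 promoter window is not reported here.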

Additional observations from a re-analysis of the deposited data

How the results depend on the processing

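With 2 replicates per group, single calls near the threshold depended on the libraries. Counts called under other settings, here and above, are given without the share of all genes called under that setting. A change in such a count therefore cannot be told apart from a change over all genes. The number of keratins tested also changed, to between 9 and 11 in fits with fewer libraries. An FDR of 0.01 gave 3 keratins in place of 8 between TGF-β+2APB and TGF-β, and 4 in place of 7 other intermediate filament genes in both comparisons with DMSO. It gave 1 in place of 9 anchoring genes and 2 in place of 4 cornified envelope genes between the treatments, and 6 in place of 10 cornified envelope genes between TGF-β+2APB and DMSO. A fit of the 4 libraries compared gave 3 anchoring genes and 2 cornified envelope genes between the treatments.

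Leaving out each library in turn gave 4 to 7 keratins for TGF-β relative to DMSO, 7 to 9 for TGF-β+2APB relative to DMSO and 5 to 7 between the treatments, where 5 came without either TGF-β+2APB replicate. In the same order the ranges were 3 to 9, 4 to 8 and 0 to 2 for other intermediate filament genes, 7 to 13, 10 to 16 and 2 to 12 for anchoring genes, and 7 to 10, 6 to 10 and 2 to 4 for cornified envelope genes. The low ends for other intermediate filament genes relative to DMSO, for anchoring genes under TGF-β and for cornified envelope genes under TGF-β+2APB came without a DMSO replicate, the 2 filament genes without TGF-β replicate 1, and the lowest anchoring counts without DMSO replicate 2 or TGF-β+2APB replicate 1.

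The replicate number as a block gave 5, 8 and 6 keratins in the 3 comparisons and 2 in place of 4 cornified envelope genes between the treatments. It ended the calls of Krt16 under TGF-β (FDR = 0.0501 by edgeR) and between the treatments (0.104), of Krt79 between the treatments (0.0966), of Sprr1a under TGF-β (0.0903) and of Lce1f between the treatments (0.0757). The log2 differences between replicates 1 and 2 were compared between groups across genes, which are not independent replicates. Pearson r was 0.148 for DMSO and TGF-β, -0.458 for DMSO and TGF-β+2APB, and -0.255 for TGF-β and TGF-β+2APB. With 1 difference per group, these values cannot show whether the numbers pair the samples. The coding length gave type I shares of 52.0%, 50.8% and 49.6%. Signs turned only for keratins without a call: Krt10 at -0.04 (TGF-β, 0.23 at most with single libraries left out) and -0.08 (TGF-β+2APB, 0.20 at most) without DMSO replicate 2 and at -0.01 (TGF-β+2APB) by library size, all relative to DMSO, and Krt12 between the treatments at -0.28 without TGF-β replicate 1 and -0.42 without TGF-β+2APB replicate 1 (0.46 at most). The cause was not tested. DESeq2, RLE and library size scaling and halved counts each gave 6, 8 and 8 keratins, with the same numbers higher and lower. Low counts limit Krt12, Krt16 and Krt79.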

Other observations

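Keratin-associated protein genes, which encode the matrix around hair keratins, had 11 rows, of which 1 had a mean of at least 20 raw counts. This gene, Krtap1-5, held 0 and 2 raw counts under DMSO, 70 and 84 under TGF-β, and 110 and 72 under TGF-β+2APB. It was called by edgeR relative to DMSO under TGF-β (FDR = 0.00245) and under TGF-β+2APB (FDR = 0.00139) and not between the treatments (log2 fold change 0.21, SE 0.52, FDR = 0.808). Krtap4-16 held 2 and 2, 8 and 4, and 30 and 30 raw counts in the same order. The keratinocyte-associated genes Krtcap2 and Krtcap3, which are not keratins, were not called by edgeR in any comparison (FDR = 0.144 to 0.825).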
